A study of Mus musculus with 6 samples.

Results

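The NCoR corepressor complex was examined through 6 of its subunit genes, *Tbl1xr1*, *Tbl1x*, *Ncor1*, *Hdac3*, *Gps2* and *Coro2a*. They were picked by name, with earlier results of these data known. All 6 were among the 53378 genes of the table that had a value in every library, and 5 of them were among the 14840 genes that averaged 10 or more normalized counts over the libraries, which were tested. *Coro2a* did not reach that level in these cells. RNA-seq had been run on neural stem cells (NSCs) derived from the cortex of E14.5 mouse embryos and grown as neurospheres, all carrying the *Tbl1xr1* flox/flox genotype. There were 3 control libraries (replicates 1, 1_1 and 2), from cells infected with a lentivirus expressing GFP only, and 3 libraries labelled Cre (replicates 2, 2_2 and 3), from cells infected with Cre-GFP, and in each case the infected cells were collected by their GFP. The loxP sites flank exon 5 of *Tbl1xr1*. The control cells therefore carry the floxed allele and a lentivirus too, and a wild-type culture without either was not analysed here. The sources used here do not give the number or sex of the embryos, the time from infection to RNA extraction, or whether replicates 1 and 1_1, or 2 and 2_2, came from 1 culture, so every p-value measures only the spread between these libraries.

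NCOR1 is a large scaffold protein that is recruited to DNA by nuclear receptors without ligand and by other transcription factors. It holds the histone deacetylase HDAC3, which it also activates, together with GPS2 and the closely related WD-repeat proteins TBL1X and TBL1XR1, which bind the scaffold and histone tails. TBL1X and TBL1XR1 are also known for the opposite step, the exchange of corepressor for coactivator through ubiquitin-dependent removal of the scaffold. CORO2A is an actin-binding member linked to the release of the complex from inflammatory genes. In neural stem cells the complex is known for holding back differentiation, including that to astrocytes.

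The deletion concerns a short piece of the *Tbl1xr1* transcript, so its position and sequence are given before the values. In mm9 *Tbl1xr1* lies on the plus strand of chromosome 3 from 21975574 to 22115516, and its coding transcript has 8127 bases and encodes 514 residues. Exon 5, at chr3:22088690-22088912, has 223 bases, all of them coding, and makes up 2.74% of the transcript. The last exon, exon 16, makes up 76.2% of it. The reference sequence of exon 5 is shown, read 5′ to 3′ on the plus strand of mm9, with the sites of a PCR primer pair that the study designed for this exon in capitals.

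*Tbl1xr1* exon 5: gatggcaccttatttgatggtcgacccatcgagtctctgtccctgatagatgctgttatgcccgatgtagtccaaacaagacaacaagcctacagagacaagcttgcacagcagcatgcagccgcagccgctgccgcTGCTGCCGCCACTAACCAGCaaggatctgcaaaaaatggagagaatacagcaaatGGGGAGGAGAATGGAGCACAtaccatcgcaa

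Of the 3 primer pairs designed for *Tbl1xr1*, 1 lies inside exon 5, 1 joins exon 5 to exon 6 and 1 joins exon 3 to exon 4, upstream of the deleted part. The primers are shown to place each pair against the exons, and the matched positions are counted from base 1 of the transcript.
Ex5 forward, bases 757 to 776: tgctgccgccactaaccagc
Ex5 reverse, bases 812 to 831: tgtgctccattctcctcccc
Ex5/6 forward, bases 800 to 819: aatacagcaaatggggagga
Ex5/6 reverse, bases 878 to 899: ctttattggaagggatttccac
Ex3/4 forward, bases 454 to 473: taggtacttgcaagagtcag
Ex3/4 reverse, bases 534 to 553: gggtggaaccagggcaccat
Against the transcript of the paralog *Tbl1x*, the best ungapped match of these primers had between 3 and 7 mismatches. Read without exon 5, whose length leaves a remainder of 1 on division by 3, the reference transcript keeps 68 residues of the protein, or 13.2%, followed by 5 other residues up to a stop codon. The bases outside exon 5 stay in such a transcript, so a read count over the whole gene does not by itself measure the deletion. Whether cells keep such a transcript at the level of the full one was not tested. Reads on exon 5 alone were not analysed here.

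**Figure D1:**
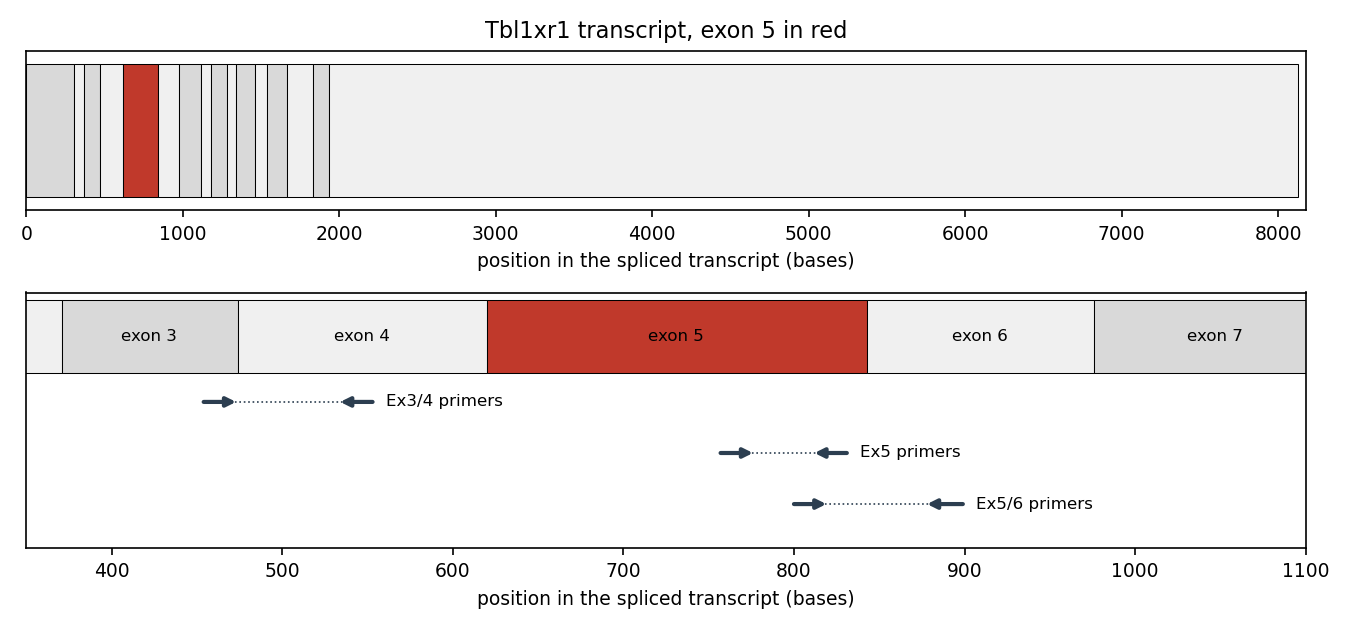
The spliced *Tbl1xr1* transcript drawn to scale in bases, whole in the upper panel and from exon 3 to exon 7 in the lower, with exon 5 in red and arrows for the 3 primer pairs. Exon 5 holds 223 of the 8127 bases, and the Ex3/4 pair lies outside it.

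The 6 libraries had between 7510615 and 11161497 reads on genes in control and between 11893230 and 14828100 in the libraries labelled Cre, so each Cre library was deeper than each control library. The deposited values are normalized counts, the reads of a gene divided by 1 size factor per library. Divided by what 1 read is worth in its library, each of them came out whole with a tolerance of 0.01, which gave back the reads behind it. Values of single libraries are listed in the order 1, 1_1, 2 for control and 2, 2_2, 3 for Cre. No library pair of a group held identical values. The chi-square of their reads per degree of freedom ran from 5.85 to 36.0, and the pairs with like numbers were not the closest. Comparisons were made with limma on log2(normalized count + 1) over all 14840 genes, with Benjamini-Hochberg adjustment and a threshold of 0.05, and log2 fold changes are Cre over control on that scale.

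None of the 5 tested subunits passed the adjusted threshold in limma or in edgeR, where 9.96% of all tested genes did in limma. DESeq2 on the recovered reads called 1 of the 5, *Tbl1xr1*, beside 11.8% of all genes. The paralogs *Tbl1xr1* and *Tbl1x* had unadjusted limma p-values under 0.05, as did 25.5% of all genes. These same 2 of 5 subunits had control and Cre libraries that did not overlap, beside 30.3% of all genes, and in both the Cre libraries lay above, beside 14.7% of all genes with that direction. *Ncor1*, *Hdac3* and *Gps2* had overlapping groups and log2 fold changes between -0.05 and 0.03. The median of the 5 was 0.033, beside -0.001 over all genes tested. In these bulk libraries a change in the share of cells that express a gene cannot be told apart from a change in the RNA per cell.

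**Figure D2:**
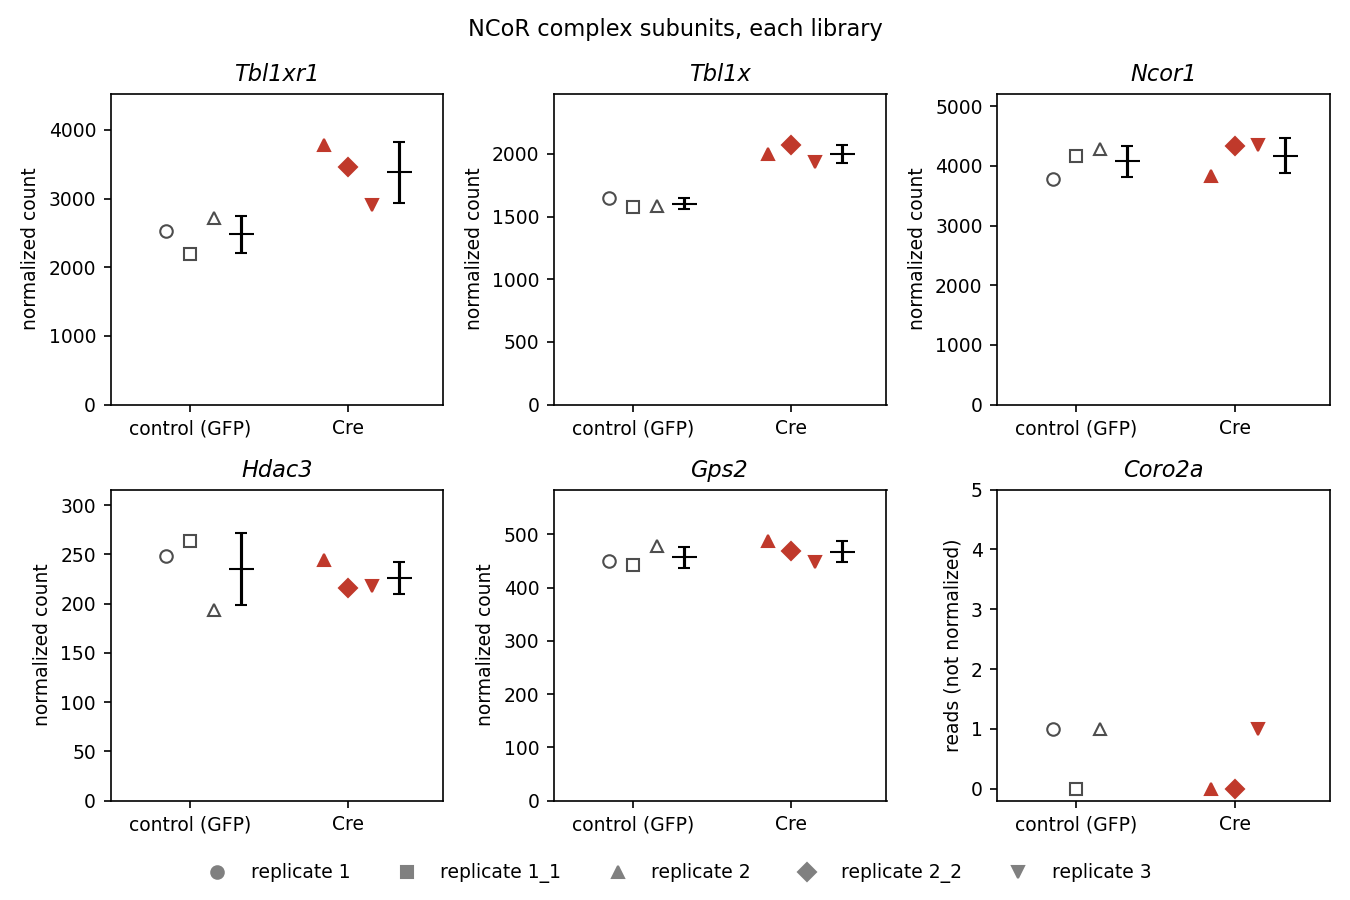
Normalized count of each subunit in each library, in control (open) and Cre (filled) cells, with the mean and SD of 3 libraries beside the points, and for *Coro2a* the reads without mean or SD. Every Cre library lies above every control library for *Tbl1xr1* and *Tbl1x*, and *Coro2a* has at most 1 read.

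*Tbl1xr1*, the targeted gene, had 2522, 2190 and 2721 normalized counts in control. In the libraries labelled Cre it had 3774, 3463 and 2905. No Cre library was below any control library, so the transcript of the floxed gene as counted over all its exons was not lower in the cells that received Cre. The paper reports that sorted cells made in this way had the correct genotype. It also reports that they lacked *Tbl1xr1* mRNA by RT-qPCR and the protein by Western blot. A count over all exons is a different measure from these. Its mean was 2477 ± 268 (SD, n = 3) in control and 3381 ± 440 (SD, n = 3) in Cre, a log2 fold change of 0.45 with an SE of 0.135 and a 95% interval from 0.149 to 0.743 (1.11-fold to 1.67-fold). In limma the adjusted p was 0.06. In edgeR the adjusted p was 0.0662, and in DESeq2 it was 0.0398. An exact two-sided permutation test of the 6 values gave p = 0.1, the smallest that 3 against 3 allows. The call depended on Cre replicate 3, the Cre library nearest to control. Without it the log2 fold change was 0.55 with an adjusted p of 0.0238 in limma. Over 17 alternatives the log2 fold change stayed between 0.357 and 0.55, with adjusted p-values between 0.0238 and 0.234, and it passed the threshold in 2 of them.

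*Tbl1x*, the X-linked paralog, had 1652, 1574 and 1583 normalized counts in control. It had 1999, 2069 and 1932 in Cre. The groups were apart and the spread within each was small, with an SD of 2.66% of the mean in control and 3.41% in Cre. That spread was close to the counting error of 1.86% to 3.05% that 1076 to 2887 reads give. The mean was 1603 ± 42.6 in control and 2000.1 ± 68.3 in Cre (SD, n = 3 each), a log2 fold change of 0.32 with an SE of 0.107 and a 95% interval from 0.085 to 0.553 (1.06-fold to 1.47-fold). The adjusted p was 0.0847 in limma, 0.0921 in edgeR and 0.11 in DESeq2. None of the 17 alternatives brought it past the threshold, and the log2 fold change stayed between 0.29 and 0.34. The paper reports *Tbl1x* as upregulated, from its own comparison of the RNA-seq data, which was not used here. The direction was the same here, but the adjusted threshold was not passed. *Tbl1x* lies on the plus strand of chromosome X from 74756352 to 74908322 in mm9 and encodes 527 residues.

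Because *Tbl1xr1* and *Tbl1x* are close relatives, the extent to which reads could be shared between them was checked on the reference transcripts. Their proteins were identical at 464 of 513 aligned residues (90.4%), and within the stretch that exon 5 encodes at 63 of 74 (85.1%). At the level of bases they were less alike, with 1205 of 1538 aligned coding bases identical (78.3%). The longest run of identical bases was 20, and no run of 30 or 50 bases was shared. A read of 50 bases that matches exactly therefore belongs to 1 of the 2 genes. Counted against all other coding genes, 4 of the 8078 runs of 50 bases in *Tbl1xr1* occurred elsewhere (0.05%) and none of those in *Tbl1x* did.

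The scaffold gene *Ncor1* had 3787, 4168 and 4281 normalized counts in control. It had 3837, 4331 and 4343 in Cre. The groups overlapped over most of their range. The mean was 4079 ± 259 in control and 4170 ± 289 in Cre (SD, n = 3 each), a log2 fold change of 0.03 with an SE of 0.116. The 95% interval ran from -0.22 to 0.29, or 0.857-fold to 1.22-fold, and the adjusted p in limma was 0.896. A difference inside that interval remains possible with these libraries, and the interval is not a limit of detection. *Ncor1* lies on the minus strand of chromosome 11 from 62129928 to 62272043 in mm9, and 87 of its exonic bases (0.68%) also belong to the opposite-strand gene *Pigl*.

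*Hdac3*, the deacetylase of the complex, had 248.7, 263.3 and 193.4 normalized counts in control. In Cre it had 244.5, 216.1 and 217.6. All 3 Cre libraries lay within the control range, whose lowest value came from control replicate 2. The mean was 235 ± 36.9 in control and 226 ± 16.0 in Cre (SD, n = 3 each), and the log2 fold change was -0.05 with an SE of 0.165, a 95% interval from -0.41 to 0.32 (0.753-fold to 1.24-fold) and an adjusted p of 0.892 in limma. It rested on the fewest reads of the tested subunits, from 145 to 353 in a library. Counting error alone gives 5.32% to 8.3% at that depth, against an SD of 15.7% of the mean in control and 7.07% in Cre. Its sign turned when control replicate 1 or 1_1 was left out, with log2 fold changes of 0.0001087 and 0.04. *Hdac3* lies on the minus strand of chromosome 18 from 38095498 to 38114642 in mm9.

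*Gps2*, a small subunit that binds both the scaffold and the TBL1 proteins, had 450.6, 441.8 and 478.8 normalized counts in control. In Cre it had 486.9, 468.3 and 447.7. The libraries of the groups were interleaved. The mean was 457 ± 19.3 in control and 468 ± 19.6 in Cre (SD, n = 3 each), with a log2 fold change of 0.03, an SE of 0.123 and a 95% interval from -0.24 to 0.30 (0.848-fold to 1.23-fold). The adjusted p was 0.898 in limma. Its SD of 4.23% and 4.19% of the mean was close to the counting error of 3.77% to 5.75% that 302 to 703 reads give. *Gps2* lies on the plus strand of chromosome 11 from 69727390 to 69730093 in mm9.

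*Coro2a* was at or near 0 in every library. It had 1, 0 and 1 reads in control and 0, 0 and 1 reads in Cre, in all 3 of 65366433 reads on genes. No library was above the 3 reads that a count of 0 allows, which correspond to between 2.08 and 4.39 normalized counts per library, and no fold change is given. This limit covers counting error only. *Coro2a* lies on the minus strand of chromosome 4 from 46549809 to 46615074 in mm9, and 329 of its exonic bases (5.09%) overlap the opposite-strand gene *Gm16731*.

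Levels of different subunits can be compared only per length, and normalized counts were divided by the kilobases of all exons of each gene. On that scale *Ncor1* was at 318.1 ± 20.2 (SD, n = 3) in control, *Tbl1xr1* at 304.8 ± 33.0 and *Gps2* at 284.9 ± 12.1. The control libraries of these 3 genes overlapped, so their order is within the spread. *Tbl1x*, at 227.3 ± 6.04 (SD, n = 3), was below all of them in every control library. *Hdac3* was lower again at 58.4 ± 9.16 (SD, n = 3), and *Coro2a* was at the floor. In Cre the order was *Tbl1xr1* at 416.0 ± 54.2, *Ncor1* at 325.3 ± 22.5, *Gps2* at 291.5 ± 12.2, *Tbl1x* at 283.6 ± 9.68 and *Hdac3* at 56.15 ± 3.97 (SD, n = 3). Here each Cre library of *Tbl1xr1* lay above each of *Ncor1*, while neighbours from *Ncor1* to *Gps2* and from *Gps2* to *Tbl1x* overlapped.

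The order depended on the gene length used. With the longest coding transcript in place of all exons, control levels were 451.3 for *Ncor1*, 348.6 for *Gps2*, 306.3 for *Tbl1x*, 304.8 for *Tbl1xr1* and 117.3 for *Hdac3*. *Hdac3* stayed lowest of the 5 in control with either length, while the places of *Tbl1xr1*, *Gps2* and *Tbl1x* moved. *Ncor1* had the highest control mean with either length. With all exons, however, *Tbl1xr1* was above *Ncor1* in control replicates 1 (310.3 and 295.4) and 2 (334.8 and 333.9). In Cre, *Ncor1* was then at 461.5 and *Tbl1xr1* at 416.0, with overlapping libraries, so the higher level of *Tbl1xr1* there held only with all exons as length.

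**Figure D3:**
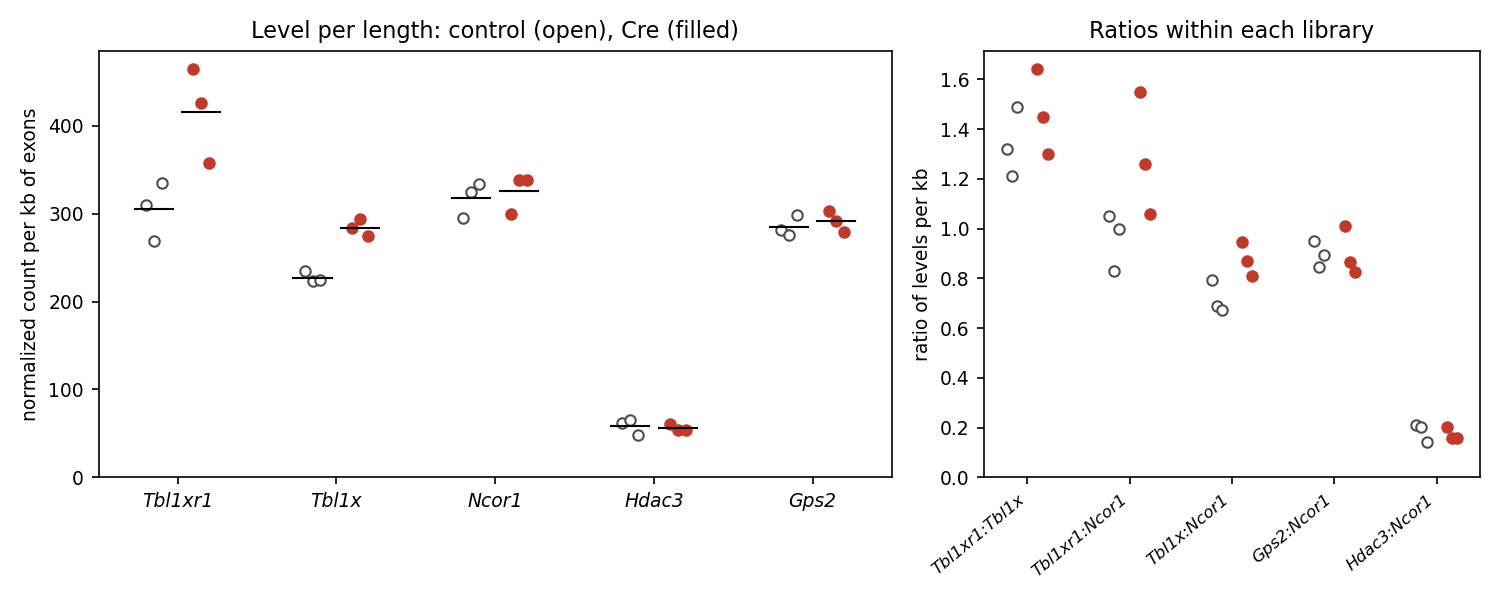
Normalized count per kilobase of exons for 5 subunits in each library (left, horizontal lines are means of 3) and ratios of these levels within each library (right), in control (open) and Cre (filled). *Hdac3* lies lowest, and the ratios of *Tbl1xr1* and *Tbl1x* to *Ncor1* are higher in every Cre library than in every control library.

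Ratios of 2 genes within a library do not depend on the size factor of that library. The ratio of *Tbl1xr1* to *Ncor1*, both per kilobase of exons, was 1.05, 0.829 and 1.0 in control and 1.55, 1.26 and 1.06 in Cre. The groups did not overlap, though control replicate 1 and Cre replicate 3 were nearly equal. The ratio of *Tbl1x* to *Ncor1* was 0.717 ± 0.0659 (SD, n = 3) in control and 0.875 ± 0.0695 (SD, n = 3) in Cre, again without overlap. Between the paralogs the ratio of *Tbl1xr1* to *Tbl1x* was 1.34 ± 0.143 (SD, n = 3) in control and 1.47 ± 0.167 (SD, n = 3) in Cre, with overlapping libraries. The ratios of *Gps2* to *Ncor1* (0.897 ± 0.0519 and 0.901 ± 0.1, SD, n = 3) and of *Hdac3* to *Ncor1* (0.185 ± 0.0356 and 0.174 ± 0.0252, SD, n = 3) overlapped as well. These ratios use the same values as the subunit levels and are given as descriptions without a test.

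Across the 6 libraries the log2 values of *Tbl1xr1* and *Tbl1x* had a Pearson r of 0.88, and of 0.51 once the group means were removed. *Tbl1xr1* and *Gps2* had an r of 0.751, and of 0.943 without the group means. *Ncor1* and *Hdac3* had an r of -0.627. With 6 libraries that share their group, their depth and their size factors, these are descriptions only. Among 9321 genes with a mean of at least 100, those most like *Tbl1xr1* over the 6 libraries were *Tcaf1* (r = 0.9989), *Pex11a* (0.9951) and *Gpd2* (0.9912). Those most like *Tbl1x* were *Ntrk2*, which encodes the receptor of the growth factor BDNF (0.9982), *Fam184a* (0.9972) and *AI464131* (0.9956). *Ntrk2*, *Fam184a* and *AI464131* were each higher in Cre at the adjusted threshold in limma, with log2 fold changes of 0.742, 1.344 and 1.055. Their r values therefore include the difference between the groups. *Fam184a* had a mean of 57.8 in control and 148.3 in Cre, so it reached the mean of 100 only through Cre. The genes most like *Ncor1* were *Rpl7a-ps7*, *Synj2bp* and *Wdr83* (0.9863 to 0.9807), those most like *Hdac3* were *Tdrkh*, *Ccdc127* and *Ttc21b* (0.9842 to 0.9686), and those most like *Gps2* were *Vps4b*, *Tmed9* and *6030442K20Rik* (0.9953 to 0.9793).

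The genes around the complex were examined next, in lists drawn up with earlier results of these data known. The shares called in these lists are therefore descriptions only. The first list held 15 proteins that bind or recruit the complex. Of 14 tested, *Skil* rose, *Zbtb16* fell and 12 did not pass (14.3% called, beside 9.96% of all tested genes), and the median log2 fold change was 0.196. *Skil* encodes SnoN, a repressor of TGF-β target genes that binds the scaffold. It had 175.3, 159.4 and 166.7 normalized counts in control and 339.3, 561.3 and 419.9 in Cre. Each Cre library held more than each control library, with a log2 fold change of 1.36, an SE of 0.185 and an adjusted p of 0.00133 in limma. *Zbtb16*, which encodes the zinc-finger repressor PLZF, had 84.4, 105.3 and 97.4 normalized counts in control and 48.5, 45.6 and 57.3 in Cre. It fell by 0.91 on the log2 scale (SE 0.218, adjusted p in limma 0.0241). Its call was lost without control replicate 1, 1_1 or 2 or without Cre replicate 2_2, at adjusted p-values from 0.0703 to 0.0981, with log2 fold changes from -0.997 to -0.84. It was lost too with control replicates 1 and 1_1 averaged (0.0736) and with both like-numbered pairs averaged (0.0768).

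Some nuclear receptors use the complex when no ligand is bound. Of 14 tested nuclear receptors, 2 rose, 1 fell and 11 did not pass (21.4% called, beside 9.96% of all tested genes). Their median log2 fold change was 0.0744. *Nr2f2*, which encodes the orphan receptor COUP-TFII, had 120.2, 106.8 and 104.0 normalized counts in control. In Cre it had 4.16, 9.47 and 7.16. It was close to lost in all 3 Cre libraries and fell by 3.87 on the log2 scale (SE 0.338, adjusted p in limma 6.88e-05). Its paralog *Nr2f1*, which encodes COUP-TFI, had the opposite direction, with 2088 ± 187 (SD, n = 3) in control and 3287 ± 196 in Cre, a log2 fold change of 0.66 with an adjusted p of 0.00569 in limma. *Thrb*, the thyroid hormone receptor β, rose from 56.4 ± 8.48 (SD, n = 3) to 124.5 ± 21.8, a log2 fold change of 1.12 with an adjusted p of 0.00925 in limma. The more abundant thyroid hormone receptor gene *Thra* had a log2 fold change of 0.22 and an adjusted p of 0.269 in limma. The groups did not overlap in 57.1% of the 14 receptors, beside 30.3% of all tested genes, and without Cre replicate 3 the number that passed was 5.

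**Figure D4:**
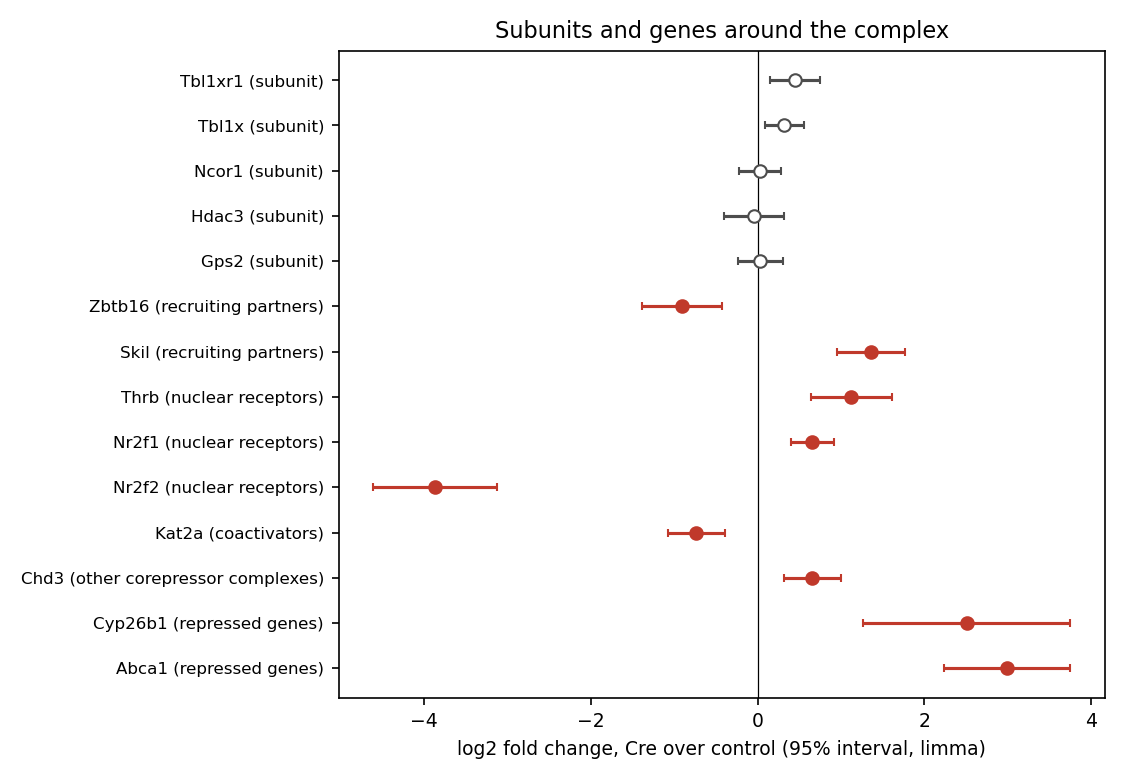
Log2 fold change of Cre over control with its 95% interval from limma (n = 3 and 3 libraries) for 5 subunits and the 9 genes around the complex that passed the adjusted threshold (red). The subunits lie between -0.05 and 0.45, and the changes of *Nr2f2*, *Cyp26b1* and *Abca1* are the widest from 0 among the genes drawn.

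The machinery that exchanges corepressor for coactivator had 11 tested genes, among them ubiquitin ligases and conjugating enzymes. None passed the adjusted threshold in limma, beside 9.96% of all tested genes, 1 had an unadjusted p under 0.05, beside 25.5%, and the median log2 fold change was -0.0668. *Siah1a*, a ubiquitin ligase of the Siah family, had a log2 fold change of 0.18 with an SE of 0.31 and an adjusted p of 0.762 in limma. Of 10 coactivators, *Kat2a* fell and 9 did not pass, with a median of 0.0201, which is 10% called, beside 9.96% of all tested genes. *Kat2a*, which encodes the histone acetyltransferase GCN5, had 246.9, 286.7 and 285.4 normalized counts in control and 180.1, 156.7 and 154.0 in Cre, with no overlap. It fell by 0.74 on the log2 scale (SE 0.155, adjusted p in limma 0.0132), and its adjusted p was 0.0651 without control replicate 1_1, 0.0696 without control replicate 2 and 0.0546 without Cre replicate 2_2. *Ncoa1*, a steroid receptor coactivator, had a log2 fold change of 0.11 and an adjusted p of 0.698 in limma.

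All 24 genes of other corepressor complexes (Sin3, NuRD, CoREST and the Groucho family) were tested. *Chd3* rose and 23 did not pass (4.17% called, beside 9.96% of all tested genes), with a median of -0.0975. *Chd3*, a chromatin remodeller of NuRD, had 152.3, 171.1 and 164.0 normalized counts in control and 240.3, 243.6 and 287.4 in Cre, with a log2 fold change of 0.66, an SE of 0.155 and an adjusted p of 0.0228 in limma. The groups did not overlap. The call was kept only without Cre replicate 2 (adjusted p 0.0156) when single libraries were left out, and otherwise the adjusted p was between 0.0525 and 0.114. With control replicates 1 and 1_1 averaged it was 0.0754, and with both like-numbered pairs averaged 0.0614. *Sin3a*, the scaffold of the Sin3 complex, had a log2 fold change of -0.35 and an adjusted p of 0.142 in limma. In 45.8% of these 24 genes the groups did not overlap, with Cre higher in 4 and lower in 7, beside the 30.3% of all genes given above.

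Genes that the complex is known to hold down, through receptors for thyroid hormone, retinoic acid, oxysterols and heme or through Notch signaling, made up a list of 18, of which 11 were tested. *Abca1* and *Cyp26b1* rose, none fell and 9 did not pass (18.2% called, beside 9.96% of all tested genes), with a median log2 fold change of 0.152. *Abca1*, a cholesterol exporter and known target of the oxysterol receptors, had 41.3, 43.9 and 16.0 normalized counts in control. In Cre it had 218.2, 316.8 and 231.0. Every Cre library was far above every control library, and the log2 fold change was 2.99 with an SE of 0.343 and an adjusted p of 0.000495 in limma. *Cyp26b1*, an enzyme that breaks down retinoic acid, had 24.8, 16.1 and 18.7 normalized counts in control and 59.6, 374.5 and 68.9 in Cre, and most of its Cre mean came from replicate 2_2. Its log2 fold change was 2.51 with an SE of 0.564 and an adjusted p of 0.0185 in limma, and without Cre replicate 2_2 it was 1.66 with an adjusted p of 0.0242. Without control replicate 1, 1_1 or 2 the adjusted p of *Cyp26b1* was between 0.0525 and 0.0808, and it was 0.0662 with control replicates 1 and 1_1 averaged. *Kdm6b*, a histone H3 demethylase gene that is known to be held down in neural stem cells, had a log2 fold change of 0.25 and an adjusted p of 0.31 in limma. *Gfap*, the astrocyte gene that the complex is known to silence, had at most 10.3 normalized counts in any library and was not tested.

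**Figure D5:**
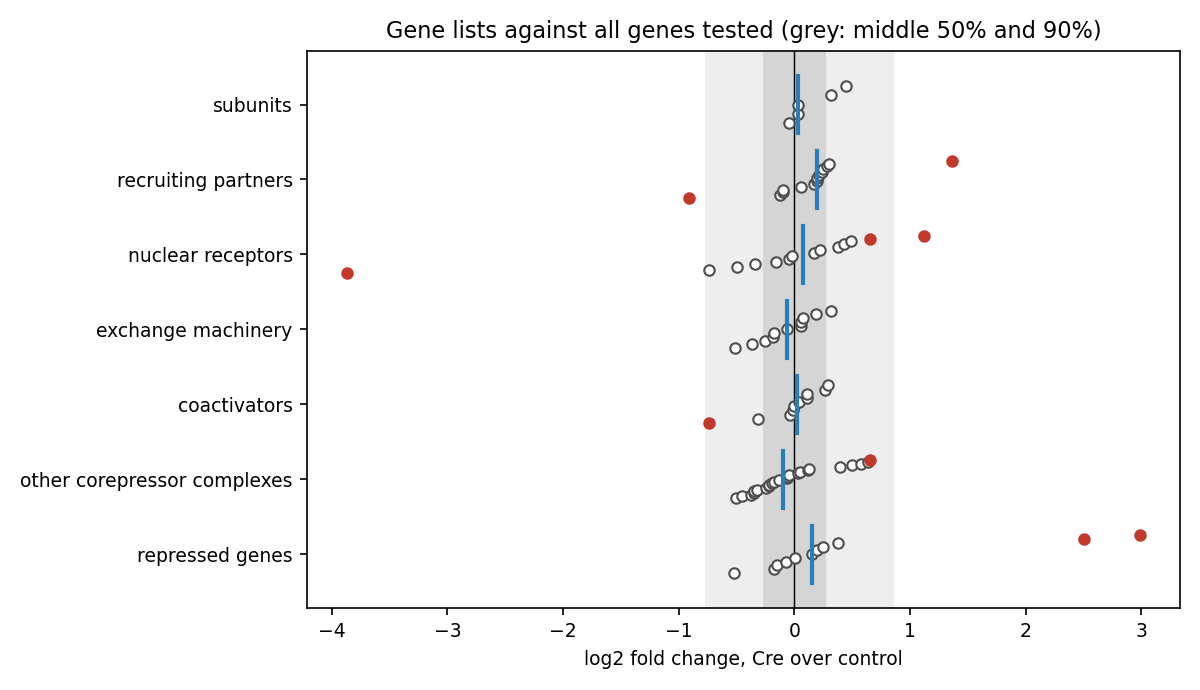
Log2 fold change of Cre over control for each tested gene of the subunits and of 6 lists around the complex, with genes past the adjusted threshold in red, list medians as blue lines and the middle 50% and 90% of all 14840 tested genes in grey. The 5 subunits lie inside the middle 90% (-0.767 to 0.849) and list medians lie between -0.0975 and 0.196.

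Markers of cell types were measured beside these genes, since their share could differ between cultures. The summed level of 10 neural stem cell markers overlapped between control (39270 to 43340 normalized counts) and Cre (39670 to 42230), and of these *Nes* fell. The shares called in these marker lists stand beside the 9.96% of all tested genes. The summed level of 10 astrocyte markers was 4963 to 5295 in control and 7948 to 9439 in Cre. Of 8 tested, 4 rose (*S100b*, *Slc1a2*, *Fgfr3* and *Aqp4*, named after their values were seen), while *Gjb6* was at the floor in every library. *S100b* had 238 ± 14.7 normalized counts in control and 2064 ± 407 in Cre (SD, n = 3). Its log2 fold change was 3.1, with an adjusted p of 7.39e-07 in limma. The log2 fold changes of *Slc1a2*, *Fgfr3* and *Aqp4* were 1.16, 1.44 and 1.635. *Aldh1l1*, named after its values were seen, was lower in every Cre library (17.3 ± 2.34 and 5.35 ± 3.30, SD, n = 3, log2 fold change -1.65, adjusted p 0.065 in limma). The summed level of 10 oligodendrocyte lineage markers was 12900 to 14820 in control and 17820 to 20120 in Cre. Of 7 tested, 3 rose (*Olig2*, *Pdgfra* and *Cspg4*). Most of this sum came from *Olig1* and *Olig2*, named after their values were seen. *Olig2* had 5157 ± 677 in control and 8380 ± 581 in Cre (SD, n = 3). *Olig1* had 7872 ± 1204 and 8952 ± 1803 and did not pass (adjusted p 0.554 in limma). *Sox10*, *Mog* and *Mag* were too low to be tested. The summed level of 10 neuron markers was 17550 to 18570 in control and 14760 to 16760 in Cre, and 1 of 6 tested fell, with *Stmn2* and *Nefl* at the floor. That gene, *Gap43*, carried the lower sum, with 8711 ± 438 normalized counts in control and 5196 ± 1010 in Cre (SD, n = 3), while *Map2*, also named after its values were seen, had 9210 ± 95.2 and 10541 ± 626. Of markers of microglia and blood, 6 of 8 were at the floor in every library, of endothelium and pericytes 4 of 8, and of meningeal fibroblasts 4 of 7. Each of these lists had 1 tested gene, and none passed the adjusted threshold in limma. In the first, *Csf1r* had 183.1 ± 25.7 normalized counts in control and 221.8 ± 53.3 in Cre (SD, n = 3). *Kdr*, of the second, was lower in every Cre library (24.5 ± 9.02 and 8.74 ± 1.71). *Foxc1*, of the third, had 298.6 ± 23.9 and 226.4 ± 63.8. The glial and neuronal sums and the depth of the libraries moved with the groups, as did *Tbl1xr1*, *Tbl1x* and the 9 genes around the complex that passed, and their part in those differences was not tested.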

How the data were processed

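RNA-seq values of 6 libraries of mouse neural stem cells were used, 3 from control cells infected with GFP and 3 from cells infected with Cre-GFP, grouped by the sample labels. RNA was extracted with Trizol, and libraries were made with the TruSeq RNA kit v2, which does not mark the strand. The methods name TopHat with mm9 and mm10, and the submitters' processing notes name STAR 2.7, DESeq2 and mm10. The read counter, strand setting and annotation are not given in the sources used here. Where genes overlap on opposite strands, as *Ncor1* and *Pigl* do, their reads may not have been told apart.

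The authors deposited a normalized count per gene and library, a signal made by dividing the read count by 1 size factor per library. The same deposited table holds the authors' own comparison, which is a log2 fold change with its error, a test score and p-values, and none of these was used. It has 53379 rows, of which 873 have no gene name and 1 was left out for a missing value, and 89 repeated names were reduced to the row with the highest mean. What 1 read is worth was worked out for each library, and 100% of the deposited values came out as whole counts to within 0.01.

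Tests used limma 3.58.1 in R 4.3.3 (lmFit, then eBayes with a trend), on the log2 scale with a pseudocount of 1, for genes averaging 10 or more. Alternatives were edgeR 4.0.16 (quasi-likelihood with TMM, 1483 genes past the threshold) and DESeq2 1.42.0 (1755 genes) run on recovered reads, a pseudocount of 0.5 or 5, all genes without a filter, a mean of at least 50, TMM and total count scaling, averaging like-numbered libraries, and leaving out each library. Members and gene lists were chosen with earlier results of these data known. Named genes were all members, up to 6 genes of each list past the threshold by size of change, the first tested gene of each list (1 of these is not reported here), and for each member the 3 genes with the highest r. *Ube2d2* and *Ube2d2a* were both listed as exchange machinery and only the latter name occurs in the table, and *Rarb*, *Gfap* and *Hes5* are each in 2 lists.

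Positions, exons and sequences came from mm9 and GENCODE M1, and primers from the study's primer list, with Python 3.11.15 and Biopython 1.88. The deposited values are given per gene, by identifier and, for most rows, a gene name. The limma, edgeR and DESeq2 fits were run on simulated data before the main fit, and the exact permutation test was not. The figures were drawn with matplotlib 3.10.9.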

Additional observations from a re-analysis of the deposited data

How the results depend on the processing

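The 5 tested subunits kept the sign of their log2 fold change under all 17 alternatives, except *Ncor1*, at -0.0208 without control replicate 1 (adjusted p 0.958 in limma), and *Hdac3*, at 0.0203 with control replicates 1 and 1_1 averaged (adjusted p 0.966), 0.00856 with both pairs averaged (0.986), 0.0001087 without control replicate 1 (1) and 0.0411 without control replicate 1_1 (0.928). With 1 library left out, *Ncor1* ran from -0.0208 to 0.0905 and *Hdac3* from -0.1805 to 0.0411. The number of subunits past the threshold was 0, with 1 (*Tbl1xr1*) by DESeq2 and 0 to 1 when single libraries were left out. The number of all genes past the threshold was 1478. It was 661 with control replicates 1 and 1_1 averaged, 880 with both pairs averaged and 563 (without control replicate 1) to 2387 (without Cre replicate 2) with 1 library left out. The number of recruiting partners past the threshold (2) was 1 under either averaging that included the control pair, and 1 to 3 with 1 library left out. Other corepressor complexes (1) had 3 by DESeq2, 2 at a mean of at least 50, 0 with the control pair averaged, 2 with the Cre pair averaged, 0 with both and 0 to 5 with 1 library left out. Repressed genes (2) had 1 with the control pair averaged and 1 to 3 with 1 library left out, nuclear receptors (3) had 3 to 5, exchange machinery (0) had 0 to 1 and coactivators (1) had 0 to 2. With the longest coding transcript as length, levels per kilobase in control and Cre were 306.3 and 382.1 for *Tbl1x*, 451.3 and 461.5 for *Ncor1*, 117.3 and 112.8 for *Hdac3* and 348.6 and 356.7 for *Gps2*. The cause of these differences was not tested. No paired analysis was possible because the groups share only 1 replicate number. With 3 libraries a group, the 95% intervals of *Ncor1*, *Hdac3* and *Gps2* reach from 0.753-fold to 1.24-fold. Changes inside them remain possible, and the intervals are not limits of detection.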
